A study of Mus musculus with 12 samples.

Results

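Chromatin accessibility was described at Lrrk2, at the genes of 8 Rab GTPases that the kinase LRRK2 is known to phosphorylate (Rab8a, Rab8b, Rab10, Rab12, Rab29, Rab35, Rab43 and Rab3a) and at Ppm1h, in 12 ATAC-seq libraries of mouse primary cortical neurons. Peaks of all 12 libraries that overlapped by 1 bp or more were merged into 263785 regions, and a region belonged to a gene when it lay in the gene body or within 10 kb upstream of one of its transcription start sites (TSS) in the GENCODE vM21 annotation of GRCm38. This gave 124 of the 263785 regions, at 9 of the 10 genes. Rab3a was not analysed here. The neurons came from embryonic day 18 wild-type C57BL/6 embryos, and the 4 groups of 3 libraries were PBS for 7 days, pre-formed alpha-synuclein fibrils (PFF) for 7 days, PFF for 7 days with the LRRK2 inhibitor MLi-2 over the final 5 days (PFF+MLi-2), and PFF for 7 days with antisense oligonucleotides against Rab5 over the final 3 days (PFF+Rab5 ASO).

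All libraries carry the same batch number in the labels, and no group with a control oligonucleotide or with MLi-2 or Rab5 ASO alone was analysed here. For both groups with an added agent the description field writes PBS where the title and the treatment label write PFF, and the title and treatment label were followed. The study counts a pregnancy as a replicate and allotted the cultures of a pregnancy to groups at random, but the labels do not tie the replicate numbers to pregnancies. The Rab5 ASO acts on RNA, so accessibility gives no check of the knockdown.

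LRRK2 is a large kinase whose activating mutations cause familial Parkinson's disease. It phosphorylates a conserved threonine or serine in the switch II loop of a subset of Rab GTPases, small proteins that mark vesicle membranes, and so changes which effectors they bind. RAB29 can recruit LRRK2 to membranes, and the phosphatase PPM1H removes the phosphate from the Rabs. Accessibility at these genes measures neither their RNA nor kinase activity.

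Each library had its own peak list of 137417 to 184717 peaks. The height of a region was its fold enrichment over local background at the peak summit, as MACS2 gave it, and was compared across libraries as its percentile within that library's list (100 is the highest peak). For tests, ranks were taken over the 72465 regions that had a peak in every library and turned into normal scores, on which a difference of 1 is 1 standard deviation of the regions, and limma was used with Benjamini-Hochberg adjustment over all of them. Total read counts were not used here. A relative depth derived from the peak lists was 0.912 to 0.976 for PBS, 0.775 to 0.919 for PFF, 0.957 to 1.03 for PFF+MLi-2 and 1.05 to 1.31 for PFF+Rab5 ASO, whose smallest peaks were also shorter (53 to 59 bp against 62 to 66 bp). The part of these differences in any result of the PFF+Rab5 ASO libraries was not tested. TSS regions of 11 of 11 neuronal markers had a peak in every library, as did 5 of 5 astrocyte markers. In PFF the summed percentile of both lists lay below PBS without overlap (neurons 741 to 757 against 760 to 788, astrocytes 251 to 273 against 295 to 340), and that of 5 oligodendrocyte-lineage markers lay above it (253 to 265 against 235 to 252), with Mog at 0 in every library. PFF+MLi-2 and PFF+Rab5 ASO ran from 775 to 800 and 766 to 790 for neurons, from 298 to 331 and 255 to 295 for astrocytes, and from 235 to 248 and 223 to 248 for the oligodendrocyte lineage. Single markers went against their list in mean percentile, PFF against PBS: Stmn2 (76.7 against 70.3), Gad2 (54.0 against 52.0), Gja1 (62.6 against 59.8) and Olig2 (68.8 against 72.4). The other markers of these lists with a peak moved with their list. Of 6 microglial markers, Cx3cr1, Aif1 and Itgam had none in any library, and 0 to 3 had one in each PBS and PFF+MLi-2 library, 2 to 3 in PFF and 0 to 1 in PFF+Rab5 ASO (summed percentiles of 0 to 82.6, 0 to 99.6, 31.9 to 112 and 0 to 16.2). Endothelial markers were at 0 (Pecam1 and Tie1) or in 1 PFF library (Cldn5). The part of the marker shifts in the results was not tested.

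The upstream sequences of 4 of the genes are shown first, because their start sites were the highest and the lowest of the 9 genes and, at Lrrk2, differed between groups. They were read from the RefSeq promoter table of GRCm38.p6, stop before the first exon and run 5′ to 3′ on the strand of the gene. Capitals mark matches to 2 motifs on either strand, the GC box GGGCGG and the longest word of the Rab29 promoter that occurs there also as its reverse complement (14 bases), a word looked for after the Rab29 sequence had been seen. The windows are chr15:91672974-91673174 (plus strand), chr1:131867027-131867223 (plus strand), chr9:66919706-66919955 (minus strand) and chr10:122678512-122678761 (plus strand).
Lrrk2: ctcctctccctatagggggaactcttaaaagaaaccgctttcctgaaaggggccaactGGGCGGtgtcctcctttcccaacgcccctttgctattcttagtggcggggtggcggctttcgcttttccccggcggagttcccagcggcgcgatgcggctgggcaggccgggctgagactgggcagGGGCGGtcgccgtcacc
Rab29: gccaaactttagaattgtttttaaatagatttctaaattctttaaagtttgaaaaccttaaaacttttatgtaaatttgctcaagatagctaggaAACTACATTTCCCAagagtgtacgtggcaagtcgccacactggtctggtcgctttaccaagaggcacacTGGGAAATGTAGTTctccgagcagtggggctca
Rab8b: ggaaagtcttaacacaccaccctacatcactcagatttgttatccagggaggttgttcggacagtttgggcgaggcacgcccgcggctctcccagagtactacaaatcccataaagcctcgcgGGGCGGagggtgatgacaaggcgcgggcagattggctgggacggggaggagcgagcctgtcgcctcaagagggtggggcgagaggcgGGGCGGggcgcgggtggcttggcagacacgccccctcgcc
Ppm1h: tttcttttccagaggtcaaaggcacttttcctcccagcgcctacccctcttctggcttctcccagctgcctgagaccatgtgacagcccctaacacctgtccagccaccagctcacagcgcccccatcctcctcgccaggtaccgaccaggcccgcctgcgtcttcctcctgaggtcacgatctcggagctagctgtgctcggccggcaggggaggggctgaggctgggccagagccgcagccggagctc

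The RefSeq table held 12 promoters of 300 bases for the 9 genes. GC content was 45.3% at Rab29 and 68.7% at Lrrk2, with 12 and 28 CpG dinucleotides, against medians of 52.7% and 7 over 32817 promoters. A GC box was in 8 of the 12 promoters (66.7%), against 35.6% of all. Several of the 12 were windows of Rab43, in part overlapping, so the promoters are not independent. Rab29, Rab8a and Ppm1h had no match. The E-box CACGTG and the AP-1 motif TGACTCA were in 0 of the 12, against 7.15% and 5.2% of all. The 14-base word of Rab29, AACTACATTTCCCA, stands there in opposite orientations with 55 bases between the copies. It was in 0 of the other 11 promoters and in 67 of the 32817 (0.204%), and Rab29 was the 1 promoter with it in both orientations. An inverted repeat at least as long, of any letters, was in 120 of all promoters (0.366%). These matches describe the letters only.

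Of the 124 regions, 41 (33.1%) had a peak in all 12 libraries and 35 had a peak in 1 library, against 27.5% and 26.6% of all regions. The regions were unevenly spread over the genes. Ppm1h, which spans 267 kb, held 60 of them and 24 of the 41, and without Ppm1h 17 of 64 regions (26.6%) were in all 12 libraries. Rab8b had 19 regions, Lrrk2 15, Rab12 10, Rab8a 6, Rab10, Rab35 and Rab43 4 each, and Rab29 2. Per library 62 to 75 of the 124 had a peak, and the mean number (± SD, n = 3) was 65.3 ± 3.1 for PBS, 71.3 ± 4.0 for PFF, 62.7 ± 1.2 for PFF+MLi-2 and 68.7 ± 6.0 for PFF+Rab5 ASO. Relative to every 10000 regions with a peak in the library, these were 5.01 ± 0.71, 5.09 ± 0.08, 5.11 ± 0.06 and 4.82 ± 0.03, and the PBS libraries alone ran from 4.36 to 5.77, so PBS spanned the range of the other 9.

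At the start sites, 7 of the 9 genes had a region whose mean percentile over the 12 libraries was 95 or higher (the Rab GTPases other than Rab35, and Lrrk2). The order was Rab8b (99.3 ± 0.43, SD over 12 libraries), Rab29 (98.7 ± 0.66), Rab12 (98.2 ± 0.85), Lrrk2 (97.1 ± 2.99), Rab8a (95.7 ± 0.80), Rab10 (95.5 ± 1.01), Rab43 (95.04 ± 1.29), Rab35 (88.3 ± 3.59) and Ppm1h (65.5 ± 5.02). Only the last steps held in every library: Rab43 was above Rab35 and Rab35 above Ppm1h in 12 of 12, whereas Rab8b was above Rab29 in 10, Rab29 above Rab12 in 8, Rab12 above Lrrk2 in 6, Lrrk2 above Rab8a in 9, Rab8a above Rab10 in 5 and Rab10 above Rab43 in 8. The 21036 TSS regions seen in every library had a median of 83.0 (interquartile range 61.7 to 94.4), and 85.5% of them lay below the Lrrk2 region, 59.2% below that of Rab35 and 28.3% below that of Ppm1h. The start-site regions of Rab8a, Rab35 and Ppm1h also hold a start site of another gene (Gm16091, 1110006O24Rik and Mir8104), which cannot be told apart from them.

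**Figure D1:**
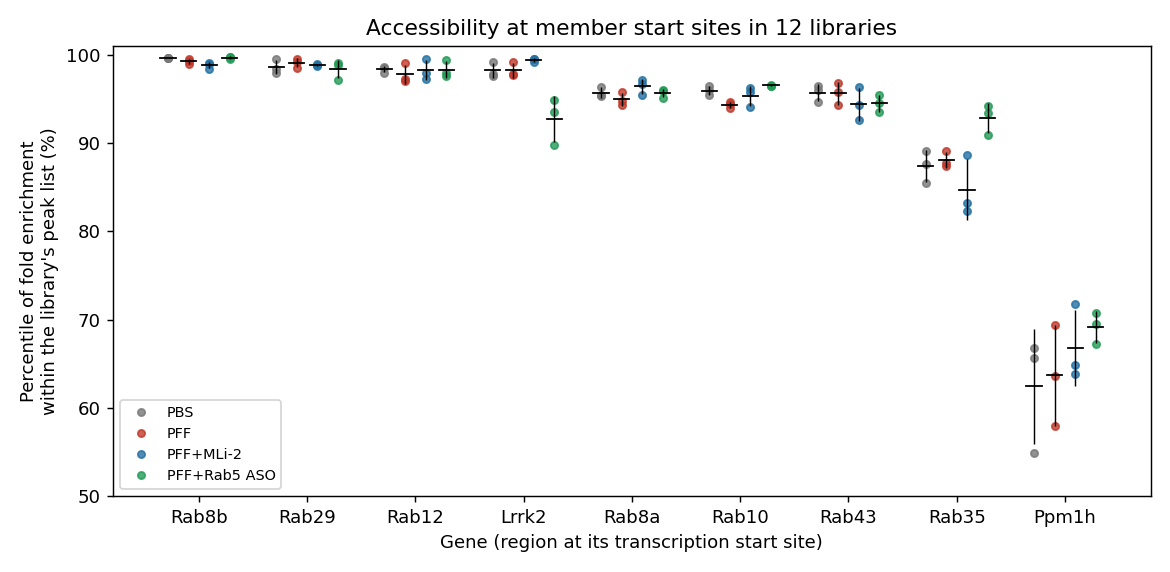
Percentile of fold enrichment within each library's peak list (vertical axis, percent, from 50 to 100) at the start-site region of 9 genes (horizontal axis). Points are the 3 libraries of each group, long bars the mean and thin lines the SD. The PFF+Rab5 ASO libraries sit lowest at Lrrk2 (89.8 to 94.9) and highest at Rab35 (91.0 to 94.2).

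The study asked whether the fibrils changed chromatin accessibility and whether inhibiting LRRK2 or lowering Rab5 altered this. From reads, it reported extensive changes with the fibrils, many of them reversed by MLi-2 and some by Rab5 ASO. The test used here ranks peak heights, so its counts are not comparable with those of the study. A region not called here may still differ. None of the 41 regions was called in PFF against PBS by limma at an adjusted p of 0.05, with 0 of 72465 called in all (percent called 0), and 8 of the 41 had an unadjusted p under 0.05 (9.72% of all). The same held for PFF+MLi-2 against PFF (0 of 41, percent called 0, 8 at an unadjusted p under 0.05 against 11.4% of all) and for PFF+MLi-2 against PBS (0 of 41, percent called 0, 4 at an unadjusted p under 0.05 against 5.77% of all). In a common fit of all 12 libraries, limma called 56 of 72465 regions in PFF+MLi-2 against PFF (36 higher, 20 lower), and 0 of the 41. In PFF+Rab5 ASO against PFF, 3 of the 41 were called, 2 at Ppm1h and 1 at Rab10, against 3.83% of all regions (2772). Without PFF+Rab5 ASO replicate 1 this comparison called 0 of all regions (limma, 13513 at an unadjusted p under 0.05), and without any other library 333 to 995. In PFF+Rab5 ASO against PBS, 3 of the 41 were called, at Rab10, Rab8b and Ppm1h, against 1.63% of all (1184), which became 0 to 35 of all without any 1 library (limma, 10994 to 12724 at an unadjusted p under 0.05). With the replicate number as a block, the comparison with PBS called 0 of the 41 and 0 of all regions (limma, 13799 of 72465 at an unadjusted p under 0.05), and the 3 calls then had adjusted p of 0.0736 to 0.0807. The F test over the 4 groups called 6 of the 41, at Lrrk2, Rab10, Rab8b and 3 at Ppm1h, against 3.5% of all (2535), and 277 to 609 of all without any 1 PFF+Rab5 ASO library, 1538 without PFF replicate 3 and 1587 without PFF replicate 2. The comparisons share the PFF or the PBS libraries and are not independent.

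The effects had no common direction over the 41 regions. The median difference was -0.01 in PFF against PBS (all regions -0.02), 0.10 in PFF+MLi-2 against PFF (all 0.01) and 0.09 in PFF+Rab5 ASO against PFF (all 0.01), with 19, 23 and 23 of 41 differences above 0. The normal scores of 1 group did not overlap those of the other at 11, 8 and 12 of the 41 regions, against 15.1%, 17.7% and 25.9% of all regions.

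**Figure D2:**
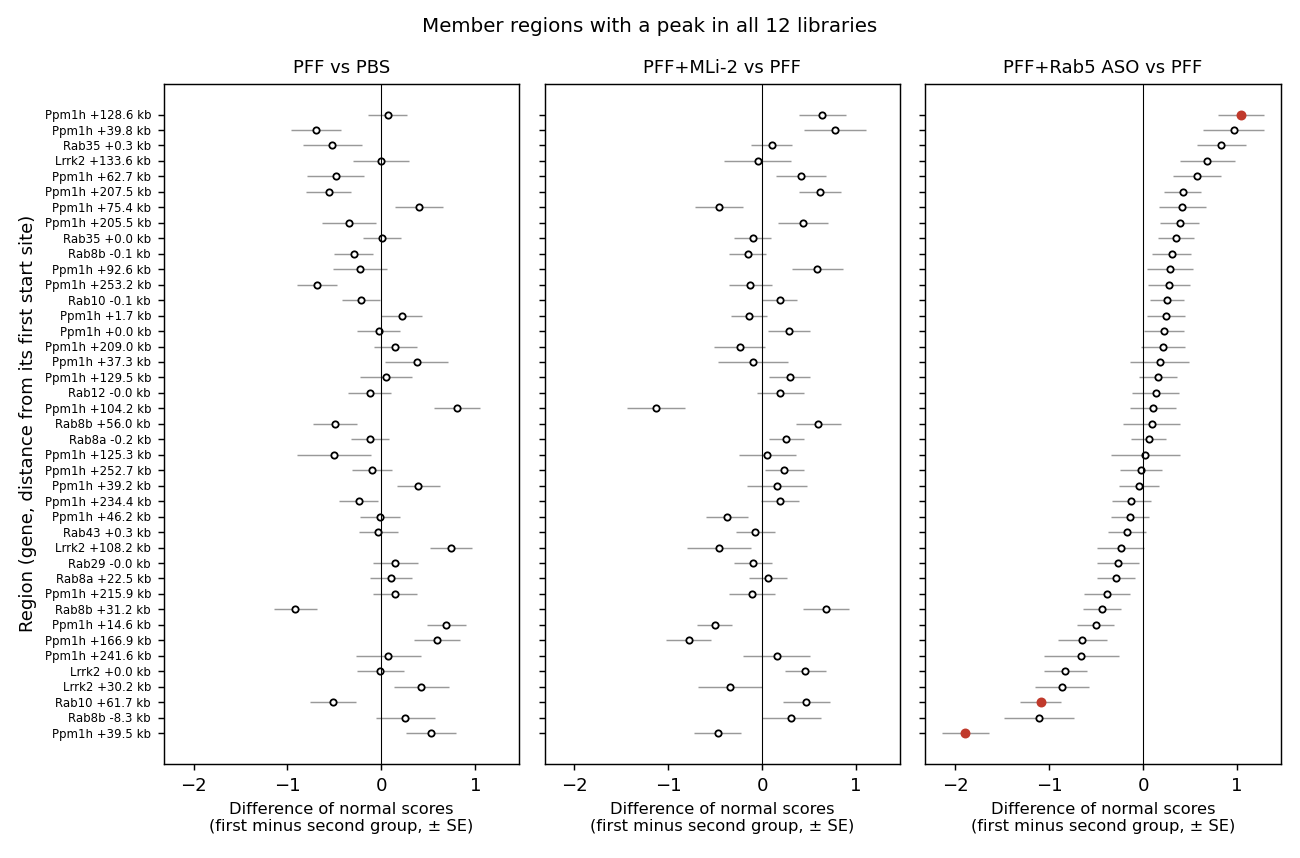
Difference of normal scores (horizontal axis, standard deviations of the regions, first minus second group, ± SE) at the 41 regions seen in every library (vertical axis, gene and distance of the summit from its first start site), for 3 comparisons. Filled points are regions called by limma (adjusted p threshold 0.05): 0 in PFF against PBS, 0 in PFF+MLi-2 against PFF and 3 in PFF+Rab5 ASO against PFF.

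Lrrk2 (ENSMUSG00000036273.15, chr15:91673175-91816120, plus strand) encodes the kinase itself. Its start-site region, chr15:91672903-91673316, covers the upstream sequence shown above and the start of the 5′ UTR. Percentiles were 97.9, 99.2 and 97.6 in PBS, 97.7, 97.9 and 99.2 in PFF, 99.5, 99.5 and 99.1 in PFF+MLi-2, and 94.9, 89.8 and 93.5 in PFF+Rab5 ASO. The PFF+Rab5 ASO libraries lay below all 9 others, and the PBS and PFF libraries overlapped. Mean fold enrichment (± SD, n = 3) was 13.4 ± 1.2 for PBS, 13.9 ± 1.3 for PFF, 14.7 ± 0.77 for PFF+MLi-2 and 9.70 ± 0.53 for PFF+Rab5 ASO. The 4 groups differed by the limma F test (adjusted p = 0.0292). In bulk libraries, a lower peak from fewer cells with the region open and one from less opening per cell cannot be told apart. This call was lost without either of 2 PFF+MLi-2 libraries (replicate 1 or 2) or any 1 of the PFF+Rab5 ASO libraries, with adjusted p of 0.0548 to 0.101 then, and when ranks of the p-value replaced ranks of fold enrichment (0.0517).

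No pairwise comparison of the Lrrk2 start site passed. PFF+Rab5 ASO was at -0.83 ± 0.23 (SE) relative to PFF (limma, adjusted p = 0.0729) and at -0.84 ± 0.24 relative to PBS (adjusted p = 0.0951). PFF+MLi-2 was 0.46 above PFF (95% confidence interval -0.03 to 0.95, adjusted p = 0.471). PFF differed from PBS by -0.01 (-0.57 to 0.54, adjusted p = 0.993).

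The TSS regions of other genes most like it over the 12 libraries, of 21035 candidates, were those of Gm38099 (Pearson r = 0.937), Hlcs, the holocarboxylase synthetase gene (0.936), and Dcaf17 with Mettl8 (0.923). They were chosen for following the Lrrk2 start site, so their low means in PFF+Rab5 ASO follow from that choice: 81.5 ± 2.96, 70.7 ± 7.07 and 95.3 ± 0.79. With the start sites of the other 8 genes, r ranged from -0.569 (Rab35) to 0.418 (Rab8a). These r describe libraries that share treatment and depth.

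Within the Lrrk2 gene 3 further regions had a peak in every library. The highest lies in an intron, chr15:91703097-91703564, with its summit 30203 bp past the start site. Its 201 bases around the summit (chr15:91703278-91703478, plus strand, GRCm38) are shown because they hold an AP-1 motif, which is in capitals.
Lrrk2 intron: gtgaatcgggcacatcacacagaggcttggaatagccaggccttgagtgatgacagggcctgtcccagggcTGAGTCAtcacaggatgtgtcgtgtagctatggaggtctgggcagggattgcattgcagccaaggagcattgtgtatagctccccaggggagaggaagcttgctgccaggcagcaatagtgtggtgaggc
Percentiles there were 93.0, 82.9 and 94.1 in PBS, 96.5, 98.1 and 89.2 in PFF, 81.6, 91.1 and 97.0 in PFF+MLi-2, and 87.8, 77.0 and 89.7 in PFF+Rab5 ASO. PBS overlapped every other group, and PFF+Rab5 ASO was not separated from PFF by the test, at -0.86 ± 0.29 (limma, adjusted p = 0.125). A second intronic region, chr15:91781304-91781461, lies 994 bp past an annotated internal start site. It ran from 49.3 to 65.2 in PBS and from 68.2 to 82.1 in PFF, without overlap, a difference of 0.74 ± 0.22 that did not pass (adjusted p = 0.333), and from 39.6 to 79.1 and 57.6 to 79.8 in the other groups. The third, over a coding exon at chr15:91806658-91806851, ran from 63.3 to 79.3 in PFF+Rab5 ASO and from 30.2 to 66.0 in the other 9 libraries.

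One Lrrk2 region had a peak in all 3 PFF+Rab5 ASO libraries and in none of the other 9. It is chr15:91738969-91739081, with its summit in an intron, 65842 bp past the first start site and 69 bp past an internal one. The region overlaps annotated exon sequence in part. Its whole sequence is given on the plus strand of GRCm38, with the 21 bases around the summit in capitals.
Lrrk2 internal: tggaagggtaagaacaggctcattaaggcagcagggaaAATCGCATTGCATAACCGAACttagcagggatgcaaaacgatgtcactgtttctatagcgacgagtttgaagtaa
Percentiles were 39.4, 48.3 and 41.7 and fold enrichment was 4.497, 4.97 and 4.62. The region is described because of this pattern, so its presence was not tested. Regions gained in this way were 1 of the 109 at these genes with a peak in PFF or PFF+Rab5 ASO libraries, against 2.64% of all such regions. Against PBS, 2 of 108 were gained (2.59% of all), this one and a Ppm1h region.

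**Figure D3:**
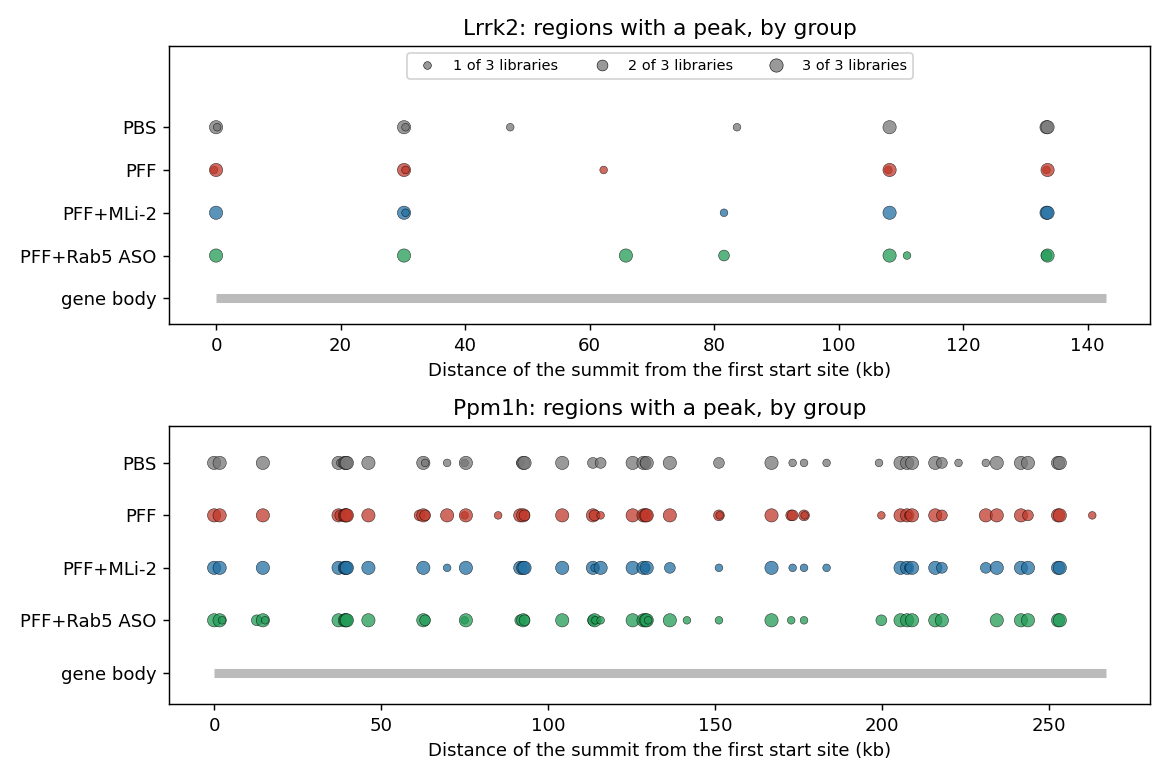
Regions with a peak along Lrrk2 (top) and Ppm1h (bottom), placed by the distance of the summit from the first start site (horizontal axis, kb) in each of 4 groups (rows). Larger points mean a peak in more of the 3 libraries and the grey bar is the gene body. Lrrk2 had 15 regions, of which 1 was seen in 3 of 3 PFF+Rab5 ASO libraries and in no other library, and Ppm1h had 60.

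Rab8a and Rab8b encode close relatives that carry vesicles to the plasma membrane and act in building the primary cilium. The Rab8a start site (chr8:72160664-72161728) ran from 94.3 to 97.2 over the 12 libraries, and the group means (± SD, n = 3) were 95.7 ± 0.57 for PBS, 94.96 ± 0.75 for PFF, 96.4 ± 0.90 for PFF+MLi-2 and 95.7 ± 0.50 for PFF+Rab5 ASO. The Rab8b start site (chr9:66919218-66919959) ran from 98.4 to 99.8, with 99.7 ± 0.03, 99.2 ± 0.32, 98.8 ± 0.35 and 99.7 ± 0.15. Neither start site was called by limma, in any pairwise comparison (adjusted p from 0.441 to 0.990) or over the 4 groups (0.721 for Rab8a and 0.262 for Rab8b). At the 3′ end of Rab8a a region in the UTR (chr8:72183594-72183866) was high in every library, at 80.2 to 91.1, with overlapping groups.

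The largest difference between PFF and PBS among the 41 regions was in an intron of Rab8b, chr9:66888215-66888586, 31227 bp past the start site. The 241 bases around its summit (chr9:66888340-66888580, on the minus strand, the strand of the gene) are printed because the region differed between the groups, with the 21 bases at the summit in capitals.
Rab8b intron: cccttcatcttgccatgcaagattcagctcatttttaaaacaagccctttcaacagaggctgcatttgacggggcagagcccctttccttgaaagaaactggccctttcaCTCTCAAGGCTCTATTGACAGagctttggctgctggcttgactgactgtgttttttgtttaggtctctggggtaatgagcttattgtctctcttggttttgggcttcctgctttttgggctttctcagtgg
Percentiles were 92.6, 79.9 and 83.0 in PBS, 66.0, 70.8 and 68.2 in PFF, 86.8, 83.1 and 69.5 in PFF+MLi-2, and 60.7, 48.3 and 57.6 in PFF+Rab5 ASO. By percentile PFF lay below PBS without overlap, PFF+MLi-2 reached from the PFF to the PBS range, and PFF+Rab5 ASO lay below all 9 other libraries. On the normal scores PFF+MLi-2 lay above PFF without overlap. By limma the 4 groups differed (adjusted p = 0.0224), and PFF+Rab5 ASO fell relative to PBS (-1.35 ± 0.24, adjusted p = 0.0319, -0.68 in log2 fold enrichment). PFF against PBS did not pass (-0.91 ± 0.23, adjusted p = 0.266), nor did PFF+MLi-2 against PFF (0.68 ± 0.25, adjusted p = 0.363). The 4-group call was lost without any 1 of the PFF+Rab5 ASO libraries (adjusted p 0.0612 to 0.0708), and the call against PBS without any 1 of its 6 libraries (0.0596 to 0.0893). With the replicate number as a block the call against PBS was lost too.

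A neighbouring region of the same intron, chr9:66887571-66887771, followed a like order by presence. It had a peak in 3 PBS libraries (51.7, 53.2 and 36.4), in 2 PFF libraries (8.56 and 19.8), in 3 PFF+MLi-2 libraries (57.1, 35.9 and 53.4) and in no PFF+Rab5 ASO library. It was the 1 of 108 regions lost in PFF+Rab5 ASO against PBS, against 0.991% of all. Upstream of Rab8b, the region at chr9:66927827-66928099 ran from 12.9 to 62.4 in PFF+Rab5 ASO and from 56.2 to 85.2 elsewhere, which did not pass (-1.11 ± 0.37 relative to PFF, limma, adjusted p = 0.124).

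RAB10, which acts in exocytosis and endosomal traffic, is the substrate most often used to read out LRRK2 activity. The Rab10 start site (chr12:3309573-3310612) had percentiles of 95.4, 96.4 and 96.0 in PBS, 94.6, 94.4 and 93.9 in PFF, 95.8, 94.1 and 96.2 in PFF+MLi-2, and 96.5, 96.6 and 96.5 in PFF+Rab5 ASO. PFF lay below PBS and below PFF+Rab5 ASO without overlap, but neither difference passed (limma, adjusted p = 0.773 and 0.473). On the normal scores PFF also lay below PFF+MLi-2 without overlap, a comparison in which no region passed.

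The other Rab10 region with a peak in all 12 libraries lies in the 3′ UTR, chr12:3248118-3248392, 61699 bp past the start site, where the antisense gene Rab10os also runs. Percentiles were 78.8, 80.4 and 71.9 in PBS, 61.3, 74.3 and 63.5 in PFF, 81.6, 66.0 and 74.8 in PFF+MLi-2, and 29.1, 28.3 and 30.99 in PFF+Rab5 ASO. The PFF+Rab5 ASO libraries lay below the other 9, the lowest of which was a PFF library. Fold enrichment was 7.31 ± 0.72, 6.53 ± 0.74, 7.00 ± 0.93 and 4.24 ± 0.06 (SD, n = 3). The difference passed against PFF (-1.09 ± 0.22, limma, adjusted p = 0.0315, -0.48 in log2 fold enrichment), against PBS (-1.603 ± 0.22, adjusted p = 0.0268) and over the 4 groups (adjusted p = 0.0117). The 4-group call held in all 12 fits that left out 1 library (adjusted p at most 0.0457). The call against PFF held only without PFF replicate 1, and otherwise reached adjusted p of 0.0747 to 0.0932, and the call against PBS was lost without any 1 of its libraries (0.055 to 0.081). With the replicate number as a block the call against PBS was lost too.

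RAB12 acts in recycling endosomes and lysosomal traffic. The Rab12 start site (chr17:66519170-66519909) ran from 97.0 to 99.5, and its group means lay between 97.8 and 98.4. Of 106 regions at these genes, 0 were lost in PFF against PBS (0.405% of all). The only one of 106 gained, against 1.1% of all regions, was within Rab12, chr17:66505141-66505305. Its summit lies in an intron, 14519 bp past the first start site, and the region overlaps an annotated exon in part. Its sequence is given on the minus strand, the strand of the gene, with the 21 bases at the summit in capitals.
Rab12 intron: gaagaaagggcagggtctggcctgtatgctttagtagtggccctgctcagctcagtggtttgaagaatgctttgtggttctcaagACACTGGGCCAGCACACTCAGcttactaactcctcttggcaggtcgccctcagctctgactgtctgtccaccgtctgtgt
It had a peak in 3 PFF libraries at percentiles of 22.2, 24.7 and 19.5, in PFF+MLi-2 replicate 3 at 34.1 and in PFF+Rab5 ASO replicate 3 at 22.9, and in no PBS library. These are low peaks, with fold enrichment of 4.04 to 4.495. The highest region away from a start site, chr17:66510552-66510714, had a peak in 11 libraries at 26.2 to 58.8. In PFF+MLi-2 against PFF, 0 of 100 regions were gained (0.374% of all) and 0 of 100 lost (1.64% of all), and against PBS 0 of 96 were gained (0.225% of all) and 0 of 96 lost (0.577% of all).

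RAB29, which resides on the Golgi and on stressed lysosomes, is both a substrate and a membrane anchor of LRRK2. The Rab29 start site (chr1:131867099-131867544) had means (± SD, n = 3) of 98.6 ± 0.77 for PBS, 99.1 ± 0.51 for PFF, 98.8 ± 0.07 for PFF+MLi-2 and 98.4 ± 1.04 for PFF+Rab5 ASO. The groups overlapped. Its start-site region ranked next to that of Rab8b, on the promoter with the lowest GC content of the 12.

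RAB35 acts in endocytic recycling and RAB43 in traffic through the Golgi. The Rab35 start site (chr5:115631532-115632118) had percentiles of 87.6, 89.1 and 85.4 in PBS, 87.8, 89.1 and 87.4 in PFF, 83.2, 88.6 and 82.3 in PFF+MLi-2, and 93.4, 91.0 and 94.2 in PFF+Rab5 ASO. By percentile all 3 PFF+Rab5 ASO libraries lay above the 9 others, the opposite order to Lrrk2, but on the normal scores they overlapped PBS. The difference from PFF did not pass (0.34 ± 0.19, 95% confidence interval -0.08 to 0.77, limma, adjusted p = 0.338). An adjoining region, chr5:115632147-115632431, ran from 15.1 to 51.3 in PFF+Rab5 ASO, 10.5 to 44.5 in PBS, 5.11 to 16.8 in PFF+MLi-2 and 6.53 to 18.0 in PFF, and PFF+Rab5 ASO against PFF did not pass (0.83 ± 0.26, adjusted p = 0.104). The Rab43 start site (chr6:87811367-87812310) ran from 92.6 to 96.8 with overlapping groups. Away from start sites, the highest regions were at 7.97 to 34.1 in 10 libraries for Rab35 (chr5:115623653-115624084) and at 22.6 to 38.2 in 3 libraries for Rab43 (chr6:87796708-87796798).

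Ppm1h (ENSMUSG00000034613.12, chr10:122678762-122945795, plus strand) encodes the phosphatase that reverses LRRK2 phosphorylation of Rabs. It had the lowest start site of the 9 genes and the most regions. The start-site region (chr10:122678536-122679549) had percentiles of 66.8, 54.9 and 65.6 in PBS, 58.0, 63.6 and 69.4 in PFF, 71.8, 64.9 and 63.8 in PFF+MLi-2, and 70.7, 67.2 and 69.5 in PFF+Rab5 ASO. No comparison of it passed (limma, adjusted p from 0.613 to 0.982). Its highest region was intronic, chr10:122724656-122725184, 46217 bp past the first start site, at 87.3 to 96.8 in every library.

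The largest difference of the 41 regions was in another Ppm1h intron, chr10:122718150-122718390, 39487 bp past the first start site. Its whole sequence is given on the plus strand, with an AP-1 motif in capitals.
Ppm1h intron: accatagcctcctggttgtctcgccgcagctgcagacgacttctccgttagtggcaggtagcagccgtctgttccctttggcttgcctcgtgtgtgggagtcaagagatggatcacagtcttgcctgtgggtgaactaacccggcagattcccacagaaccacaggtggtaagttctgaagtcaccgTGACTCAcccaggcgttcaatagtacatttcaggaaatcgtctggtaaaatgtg
Percentiles were 58.6, 23.2 and 37.0 in PBS, 68.3, 64.3 and 41.0 in PFF, 42.9, 45.0 and 26.3 in PFF+MLi-2, and 1.30, 4.32 and 2.63 in PFF+Rab5 ASO. At the bottom of their own peak lists, the PFF+Rab5 ASO libraries lay below all 9 others, while the other groups overlapped. Fold enrichment was 4.86 ± 0.83, 5.98 ± 0.70, 4.72 ± 0.35 and 3.22 ± 0.26 (SD, n = 3). PFF+Rab5 ASO fell relative to PFF (-1.89 ± 0.25, limma, adjusted p = 0.0152, -0.76 in log2 fold enrichment) and relative to PBS (-1.37 ± 0.25, adjusted p = 0.0355), and the 4 groups differed (adjusted p = 0.0117). The 4-group call held in all 12 fits without 1 library (adjusted p at most 0.0482). The call against PFF was lost without PFF+Rab5 ASO replicate 1 (0.0546), and that against PBS without any 1 of its 6 libraries (0.0588 to 0.107) and with ranks of the p-value (0.0719). With the replicate number as a block the call against PBS was lost too. The next region, chr10:122718456-122718606, had percentiles of 56.6, 36.4 and 47.3 in PBS, 22.2, 45.1 and 8.19 in PFF, 51.1, 24.0 and 58.9 in PFF+MLi-2, and 68.6, 33.9 and 61.4 in PFF+Rab5 ASO. There PFF had the lowest mean, and PFF+Rab5 ASO against PFF did not pass (0.96 ± 0.33, adjusted p = 0.126).

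An AP-1 motif within 100 bp of the summit was found in 10 of the 99 regions away from start sites at these genes (10.1%), against 8.26% of 218464 such regions in all, a share near the background. At start sites it was in 1 of 25 (4%) against 4.27%, and the GC box in 11 of 25 (44%) against 33%.

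Both other called Ppm1h regions are intronic. At chr10:122807156-122807452, 128585 bp past the start site, percentiles were 22.2, 12.9 and 14.04 in PBS, 26.5, 26.1 and 10.2 in PFF, 24.7, 37.1 and 52.1 in PFF+MLi-2, and 68.3, 59.7 and 36.6 in PFF+Rab5 ASO. PFF+Rab5 ASO lay above PBS and PFF without overlap and overlapped PFF+MLi-2. It rose relative to PFF (1.04 ± 0.25, limma, adjusted p = 0.0491, 0.46 in log2 fold enrichment), and the 4 groups differed (adjusted p = 0.043). The call against PFF was lost in every fit without 1 library (adjusted p 0.0598 to 0.136), with ranks of the p-value (0.0833), with a merging overlap of 50 bp (0.0504) and over regions with a peak in the 6 libraries compared (0.063). The 4-group call was lost in 10 of 12 fits without 1 library and with the replicate number as a block (0.0647). At chr10:122782854-122783116, 104245 bp past the start site, percentiles were 60.4, 45.5 and 45.6 in PBS, 72.6, 82.6 and 63.5 in PFF, 13.9, 44.2 and 48.1 in PFF+MLi-2, and 72.2, 77.0 and 79.0 in PFF+Rab5 ASO. PFF and PFF+Rab5 ASO lay above PBS and PFF+MLi-2 without overlap. The 4 groups differed (adjusted p = 0.0382), a call lost in 10 of 12 fits without 1 library and with ranks of the p-value (0.0648), whereas PFF against PBS (0.80 ± 0.24, adjusted p = 0.335) and PFF+MLi-2 against PFF (-1.13 ± 0.31, adjusted p = 0.271) did not pass.

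**Figure D4:**
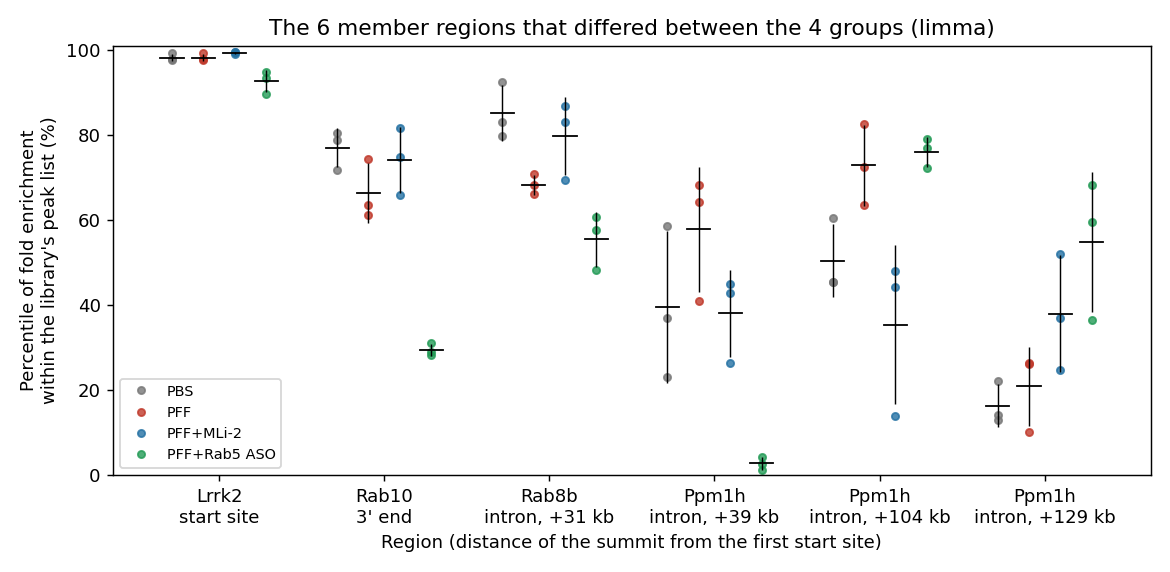
Percentile of fold enrichment within each library's peak list (vertical axis, percent) at the 6 regions that differed between the 4 groups by limma (horizontal axis, gene and distance of the summit from the first start site). Points are the 3 libraries of each group, long bars the mean and thin lines the SD. The PFF+Rab5 ASO libraries sit below the other 9 at Lrrk2, at Rab10, at Rab8b and at the first of the 3 Ppm1h regions.

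Another pair of Ppm1h intronic regions, where PFF had the highest mean, passed in no comparison. At chr10:122845523-122846091 percentiles ran from 84.0 to 84.9 in PBS, 90.1 to 97.0 in PFF, 75.5 to 82.8 in PFF+MLi-2 and 78.4 to 90.0 in PFF+Rab5 ASO (PFF+MLi-2 against PFF -0.79 ± 0.24, limma, adjusted p = 0.311). At chr10:122693160-122693565 they ran from 71.0 to 81.3, 89.7 to 91.9, 79.1 to 81.9 and 80.1 to 87.3 (PFF against PBS 0.69 ± 0.21, adjusted p = 0.338, named after its values were seen). In both, the PFF libraries lay above those of PBS and PFF+MLi-2, and only at the second also above PFF+Rab5 ASO on the normal scores. By presence, 2 of 109 regions were lost in PFF+Rab5 ASO against PFF (1.94% of all), both in Ppm1h introns. The region at chr10:122748455-122748612 had a peak in 1, 3, 1 and 0 libraries of PBS, PFF, PFF+MLi-2 and PFF+Rab5 ASO, and that at chr10:122909733-122909963 in 1, 3, 2 and 0, at percentiles of 4.59 to 18.1. Another region, chr10:122792636-122792791, had a peak in 0, 2, 1 and 3 and was gained against PBS.

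Genes that act with LRRK2 and its Rabs were read at their start sites (19 genes, among them Lrrk1, Vps35, the phospho-Rab effectors Rilpl1, Rilpl2, Mapk8ip3 and Spag9, the Rab escort and recycling genes Gdi2, Chm and Chml, and the related phosphatases Ppm1j and Ppm1m). They held 48 TSS regions, and 30 of them were seen in every library. In PFF+Rab5 ASO against PFF, limma called 1 of the 30 as higher and 1 as lower, against 1.46% of the 21036 TSS regions tested. The higher one was at a start site of Dnajc6, the neuronal auxilin that uncoats clathrin vesicles (chr4:101550190-101550523, 0.92 ± 0.22, adjusted p = 0.0486), and the lower one was at Gak, the ubiquitous auxilin (chr5:108581416-108581705, -0.98 ± 0.21, adjusted p = 0.0367). None of the other tested start-site regions of either gene passed in this comparison: the other tested Gak region (chr5:108629365-108630104) differed by 0.03 ± 0.20 (adjusted p = 0.958), and the 3 other tested Dnajc6 regions by -0.64, 0.10 and 0.17 (adjusted p = 0.170 to 0.879). In PFF against PBS, PFF+MLi-2 against PFF, PFF+MLi-2 against PBS, PFF+Rab5 ASO against PBS and the 4-group F test, 0 of the 30 were called by limma, against 0%, 0%, 0%, 0.632% and 1.35% of TSS regions. At an unadjusted p under 0.05 were 2, 1, 2, 1 and 4 of the 30, against 5.55%, 7.26%, 3.22%, 9.89% and 11.6%.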

How the data were processed

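ATAC-seq was performed on 12 libraries of mouse primary cortical neurons. The methods of the study state that the authors trimmed their reads with Trim Galore 0.6.7 after FastQC, aligned them to GRCm38 with Bowtie2 2.5.1 and called peaks in each library separately with MACS2 2.2.7.1. Peak-calling options, duplicate handling and the Tn5 shift are not given in the sources used here, and no control library was named, so enrichment is relative to local background. The deposited peak lists give, for each peak, a fold enrichment at the summit (a linear ratio), −log10 p-values and q-values, and a score (10 times the −log10 q, not used). No read counts were used, so no count model applied and depth is known only as a relative value (the modal background divided by the smallest peak width).

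Peaks overlapping by 1 bp or more were merged (Python 3.11.15, pandas 2.3.3, numpy 2.4.6, scipy 1.17.1), and each library's highest peak gave the value of a region. Percentiles are ranks of fold enrichment within a library's list. Normal scores of ranks over 72465 regions with a peak in all 12 libraries were compared by limma (3.58.1, under R 4.3.3) (two-sided, Benjamini-Hochberg over all regions, threshold 0.05), with the 6 libraries of each of 5 comparisons and an F test over 4 groups. The fit was first run on simulated scores with known shifts and independent noise, without effects of depth or replicate. The outcome of that run is not reported here. The study's own test was run on reads, which the peak lists do not hold. Regions with a peak in fewer libraries were compared by presence only, as gained (3 of 3 against 0 of 3) or lost. A region within 1 kb of a start site counted as a TSS region.

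The members, the related genes, the markers and the tests were chosen with earlier results of these data known. Regions named were the highest TSS region and the highest region elsewhere of each gene, every region called, gained or lost, and, where limma called none in PFF against PBS or PFF+MLi-2 against PFF, the 3 largest differences. Exceptions are stated where they occur. One related gene and a marker gene are not reported here and are left out of the counts. Rab10 sequence is not shown because the summit of that region lies in a UTR. Alternatives were ranks of the −log10 p, the log2 of the fold, a minimum −log10 q of 5, equal list lengths (137417 peaks), a merging overlap of 50 bp, a window of 1 kb upstream, a presence rule of 2 of 3, a common fit of all libraries, regions in all 6 libraries of a comparison, a replicate block, and each library left out in turn.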

Additional observations from a re-analysis of the deposited data

How the results depend on the processing

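The PFF+Rab5 ASO calls depended on single libraries, and some on how heights were ranked and regions merged or chosen. None of the 6 called pairwise differences changed sign under any setting that tested it. Among all 205 pairwise differences of the 41 regions, 10 changed sign on the log2 scale and 8 with ranks of the p-value, with differences of at most 0.241 in size. Leaving out 1 library changed the sign of 1 to 19 of the 82 to 123 differences it entered, for example without PBS replicate 1 (19 of 123, up to 0.312 in size), PFF replicate 1 (14 of 123, up to 0.254) and PFF+MLi-2 replicate 1 (12 of 82, up to 0.276), and none of these differences had passed the test. Of 41 regions, limma called 0 in PFF against PBS and in PFF+MLi-2 against PFF under every setting. In PFF+Rab5 ASO against PFF it called 3, and 2 with ranks of the p-value, with a merging overlap of 50 bp or over regions with a peak in the 6 libraries compared, and 0 to 2 without 1 library. In PFF+Rab5 ASO against PBS it called 3, and 2 with ranks of the p-value and 0 without any 1 library. There it called 4 in a common fit of all libraries or over regions with a peak in the 6 libraries compared. Over the 4 groups it called 6, and 4 with ranks of the p-value and 2 to 6 without 1 library. A minimum −log10 q of 5 and equal list lengths left 25 and 33 of the 41 regions with a peak in every library, so called regions went untested. Against PFF, 0 were called with the minimum q, when none of the 3 called regions was tested, and 1 with equal lists, when 1 was tested. Against PBS, 1 was called with the minimum q, when 1 of the 3 was tested. Over the 4 groups, 2 were called with the minimum q, when 2 of the 6 were tested, and 3 with equal lists, when 4 were tested (the Ppm1h region at 104245 bp then had adjusted p = 0.0574 by limma).

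With the replicate number as a replicate block, limma called 4 member regions in PFF+Rab5 ASO against PFF (1671 of 72465 in all, against 2772 without the block), 0 in PFF+Rab5 ASO against PBS (0 in all, against 1184) and 6 over the 4 groups (2183 in all, against 2535), of which 5 were among the 6 called without the block. Deviations of same-numbered libraries correlated at 0.00513 to 0.0788 in the 15 pairs, and those of differently numbered libraries at -0.0705 to 0.0149. Whether the numbers pair the libraries was not tested. The fit without the block was kept as the main one, and both are given.

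Counts by presence moved with the rule. With at least 2 of 3 against at most 1 of 3 libraries, PFF against PBS had 15 gained and 4 lost of 106 (10.7% and 6.36% of all regions), PFF+MLi-2 against PFF 2 and 13 of 100 (4.97% and 13.1%), and PFF+Rab5 ASO against PFF 8 and 11 of 109 (11.4% and 10.8%). With equal lists, 2 were gained in PFF against PBS and 1 lost in PFF+Rab5 ASO against PFF. With the minimum q, 1 was gained and 1 lost in PFF+MLi-2 against PFF and 2 were gained in PFF+Rab5 ASO against PFF. Without 1 library, gained regions numbered 1 to 3 in PFF against PBS, 0 to 1 in PFF+MLi-2 against PFF and 1 to 2 in PFF+Rab5 ASO against PFF, and lost regions 0 to 1, 0 to 4 and 2 to 5. The cause of these shifts was not tested. Of 154 alternative counts 103 stayed within 1.5 times the main one, and of 216 alternative differences at start sites 205 moved by less than the spread between replicates.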
